A study of Mus musculus with 4 samples.

Results

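The cytochrome P450 genes examined here were the mouse protein-coding genes whose symbol consists of Cyp, a number, 1 letter, and a number, together with *Cyp51*. On chromosomes 1 to 19, X, and Y of GRCm38, 93 of 21883 protein-coding genes met this rule, which used only names. They were divided into 42 genes of the subfamilies best known for drug metabolism in hepatocytes (1a, 2a, 2b, 2c, 2d, 2e, and 3a) and 51 others. A gene was scored by the H3K27ac peaks that touched its gene body or the 10 kb on either side of it.

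The study mapped H3K27ac, an acetyl mark on histone H3 found at active promoters and enhancers, in mouse liver sinusoidal endothelial cells (LSECs), the fenestrated endothelium of the liver capillaries, in order to locate regulatory elements. ChIP-Seq was performed in 2 libraries, replicates 2 and 3, which formed a single group with no treatment or genotype contrast. LSECs in the study were taken from perfused, collagenase-digested liver with anti-CD146 beads, and its methods list *Col4a1* fl/wt mice with and without Cdh5CreERT2 and dCas9-KRAB Cdh5CreERT2 mice, in which Cre is driven by an endothelial promoter. Which of these mice, their age, and any treatment are not given for the libraries used here, and nothing states that the replicates came from separate animals. With 1 group of 2 libraries there was no test between conditions, and all values below are descriptions of these libraries.

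P450 enzymes are heme-containing monooxygenases that insert oxygen into lipophilic substrates, most of them in the endoplasmic reticulum with electrons from P450 oxidoreductase and some in mitochondria with electrons from ferredoxin. Hepatocytes carry most of the drug-metabolizing P450 enzymes of the liver, and many of these genes lie in tandem arrays of close paralogs. Other members have narrower roles in the synthesis of cholesterol, bile acids, and steroid hormones, in the handling of vitamin D and retinoic acid, or in fatty acid hydroxylation.

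The libraries differed in yield, with 26975 peaks in replicate 2 and 64498 in replicate 3, a ratio of 2.39, and the read depth behind them is unknown. A region of both libraries, the merged span of overlapping peaks, reached within 1 kb of the start of 12 of 16 LSEC marker genes (11 had a replicate 2 peak there), 1 of 13 hepatocyte markers (*Trf*), 1 of 9 Kupffer cell markers (*Cd68*), and none of 8 hepatic stellate cell or 5 cholangiocyte markers. In the wider windows, 4 of the 13 hepatocyte genes had such a peak (*Alb*, *Asgr1*, *Fgb*, and *Trf*), and 7 had no peak in either library. The part of hepatocyte chromatin in the P450 peaks described below was not tested.

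A peak of both libraries was present in the window of 23 of the 93 P450 genes (24.7%), whereas 58.5% of all protein-coding genes had one. Another 20 P450 genes had a peak in replicate 3 alone, and 50 (53.8%) had none. Of the 21883 protein-coding genes, 2488 had a peak in replicate 3 alone and 6575 (30.05%) had none. Counted by library, replicate 2 marked 23 P450 genes beside 58.6% of all genes, and replicate 3 marked 43 (46.2%) beside 69.9%. The P450 genes were not shorter, with a median gene length of 21.6 kb against 17.2 kb for all protein-coding genes. Within the gene body alone, 17 P450 genes (18.3%) had a peak of both libraries against 50.2% of all genes. Around the gene start (within 1 kb, or within 1 kb of either gene end for the 20 P450 genes with no start in the promoter table), the counts were 14 (15.1%) and 44.9%.

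The low share lay mainly among the drug-metabolism genes. Only 4 of these 42 genes (9.52%) had a peak of both libraries in the window, 3 had a replicate 3 peak alone, and 35 (83.3%) had none. Of the 51 other P450 genes, 19 (37.3%) had a peak of both libraries, 17 had a replicate 3 peak alone, and 15 (29.4%) had none. Over all protein-coding genes, 58.5% had a peak of both libraries and 30.05% had none. Counted in replicate 3, 70.6% of the other P450 genes had a peak, near the 69.9% of all genes. The drug-metabolism genes were also the longer of these sets, with a median of 27.1 kb against 17.7 kb. Because 31 of the 93 genes shared overlapping windows with another member, in 13 blocks of at most 3 genes, the genes are not independent observations.

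**Figure D1:**
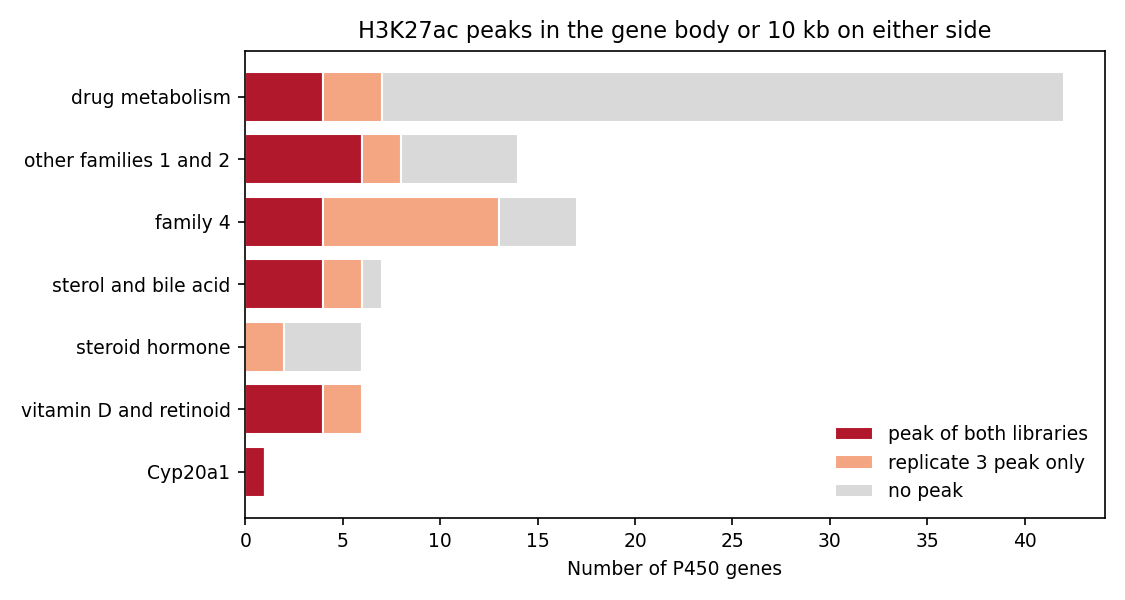
Number of P450 genes (x axis) in each role group (y axis), divided by whether the gene body or the 10 kb on either side held an H3K27ac peak of both libraries, a replicate 3 peak alone, or no peak. Of the 42 drug-metabolism genes 35 had no peak, whereas each of the 6 vitamin D and retinoid genes had a peak in at least replicate 3. Over all protein-coding genes, 30.05% had no peak and 69.9% had one in replicate 3.

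Promoter sequence differed between these sets as well. The RefSeq promoter table for GRCm38.p6 held 83 promoters of 73 P450 genes, each with 250 bases before and 50 after a start. A promoter was called CpG-rich when its observed/expected CpG ratio was at least 0.6 and its GC content at least 50%. By this measure 7 of the 83 P450 promoters (8.43%) were CpG-rich, compared with 45.2% of 21262 promoters of all protein-coding genes. None of the 39 drug-metabolism promoters was CpG-rich, and their CpG count ran from 0 to 4 with a median of 1. The 44 promoters of the other P450 genes had a median of 4 CpGs and a range of 0 to 31, and 7 (15.9%) were CpG-rich. The 200 bases before the start are shown for 3 CpG-rich promoters with a peak of both libraries, for the CpG-poor promoter of *Cyp4b1*, which also had one, and for 3 drug-metabolism promoters with no peak. Each is written 5′ to 3′ on the strand of the gene, with CG dinucleotides in capitals.
Cyp46a1 (chr12:108334116-108334315, plus strand): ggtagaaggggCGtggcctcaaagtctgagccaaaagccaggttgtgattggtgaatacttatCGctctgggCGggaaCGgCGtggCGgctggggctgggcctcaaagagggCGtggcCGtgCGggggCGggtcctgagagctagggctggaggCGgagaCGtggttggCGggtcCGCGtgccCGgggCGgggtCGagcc
Cyp51 (chr5:4104698-4104897, minus strand): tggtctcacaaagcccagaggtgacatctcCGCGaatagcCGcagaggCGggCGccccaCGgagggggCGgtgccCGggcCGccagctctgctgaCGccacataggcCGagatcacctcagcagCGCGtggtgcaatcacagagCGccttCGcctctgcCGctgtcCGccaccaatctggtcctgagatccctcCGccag
Cyp2r1 (chr7:114562973-114563172, minus strand): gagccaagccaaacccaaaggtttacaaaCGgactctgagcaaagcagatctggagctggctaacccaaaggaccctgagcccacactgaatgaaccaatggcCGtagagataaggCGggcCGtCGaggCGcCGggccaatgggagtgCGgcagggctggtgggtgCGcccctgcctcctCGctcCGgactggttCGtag
Cyp4b1 (chr4:115647722-115647921, minus strand): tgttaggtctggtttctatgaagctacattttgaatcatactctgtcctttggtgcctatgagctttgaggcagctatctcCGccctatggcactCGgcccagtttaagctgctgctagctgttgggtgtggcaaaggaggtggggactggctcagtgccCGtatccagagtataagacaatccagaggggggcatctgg
Cyp1a2 (chr9:57683656-57683855, minus strand): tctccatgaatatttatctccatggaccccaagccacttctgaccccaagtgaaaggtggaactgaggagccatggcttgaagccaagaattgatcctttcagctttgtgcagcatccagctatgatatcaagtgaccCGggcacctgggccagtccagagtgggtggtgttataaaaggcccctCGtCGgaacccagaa
Cyp2e1 (chr7:140763619-140763818, plus strand): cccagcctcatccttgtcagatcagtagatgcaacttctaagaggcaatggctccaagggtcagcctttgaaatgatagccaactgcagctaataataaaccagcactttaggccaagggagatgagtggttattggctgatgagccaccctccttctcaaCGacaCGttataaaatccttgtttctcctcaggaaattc
Cyp3a11 (chr5:145879855-145880054, minus strand): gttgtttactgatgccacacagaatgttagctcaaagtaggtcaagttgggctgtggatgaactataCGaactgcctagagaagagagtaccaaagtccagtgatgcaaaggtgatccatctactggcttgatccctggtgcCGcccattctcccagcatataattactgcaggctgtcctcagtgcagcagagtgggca

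The contrast was visible in the letters, with 18 CpGs in the stretch shown for *Cyp46a1* and 2 in those for *Cyp2e1* and *Cyp3a11*. TATAAA, the letters of the TATA box, searched on both strands of the whole 300-base promoter, occurred in 25 of the 39 drug-metabolism promoters (64.1%), including *Cyp1a1*, *Cyp1a2*, *Cyp2c29*, *Cyp2e1*, and *Cyp3a11*. It occurred in 7 of the 44 other P450 promoters (15.9%) and in 12.6% of all promoters. The GC box letters GGGCGG had the opposite distribution, with 1 of 39 drug-metabolism promoters (2.56%, *Cyp3a11*), 18 of 44 others (40.9%), and 46.2% of all. CCAAT did not separate them, being present in 18 of 39 and 21 of 44 promoters and in 38.2% of all. GCGTG, the core that the aryl hydrocarbon receptor and its partner bind, was found in 3 drug-metabolism promoters (7.69%), among them *Cyp1a1* and *Cyp2b10*, and in 38.5% of all promoters. A letter match is a description of these windows and does not show binding.

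A peak of both libraries lay within 1 kb of the start of 9 of the 83 P450 promoters. These 9 had a median of 16 CpGs, 5 of them were CpG-rich, 7 held GGGCGG, and none held TATAAA. The 69 P450 promoters with no peak had a median of 2 CpGs, none was CpG-rich, and 31 (44.9%) held TATAAA. Among all promoters, 77.0% of the CpG-rich and 18.2% of the CpG-poor had a peak of both libraries at the start. Among the CpG-rich P450 promoters the count was 5 of 7, namely *Cyp46a1*, *Cyp51*, *Cyp2r1*, *Cyp20a1*, and *Cyp1b1*, while *Cyp26a1* and *Cyp4v3* had a replicate 3 peak alone. In the CpG-poor class the count was 4 of 76 (5.26%), made up of *Cyp2j6*, *Cyp4b1*, *Cyp4f13*, and *Cyp4f16*. All 4 were among the 37 CpG-poor promoters of the other P450 genes (10.8%), and none was among the 39 of drug metabolism. *Cyp2s1*, with 17 CpGs but an observed/expected ratio of 0.57, had no peak at its start in either library.

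**Figure D2:**
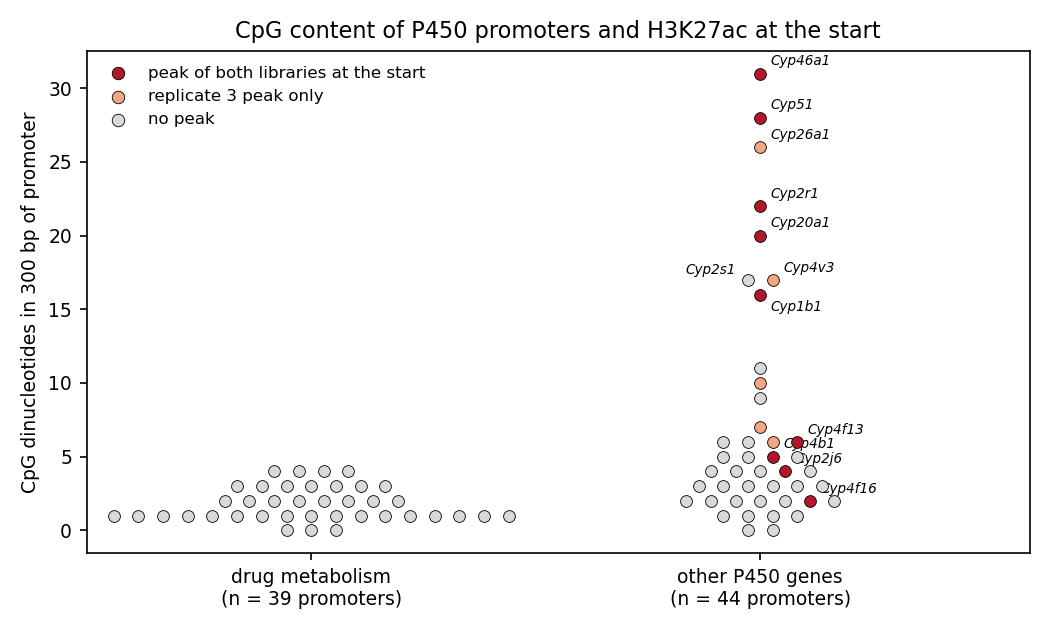
CpG dinucleotides in each 300-bp promoter (y axis, count) for drug-metabolism and other P450 genes (x axis), 1 point per promoter, coloured by the H3K27ac peak within 1 kb of the start. All drug-metabolism promoters have 4 CpGs or fewer and no peak, and the promoters with peaks of both libraries include those with 31 and 28 CpGs.

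Of the 7 drug-metabolism subfamilies, only 1a and 2d had a peak of both libraries. No peak of either library touched the windows of the 4 *Cyp2a* genes or the 5 *Cyp2b* genes, which include *Cyp2b10*, the classical target of the constitutive androstane receptor. *Cyp2e1*, which oxidizes ethanol, and *Cyp3a11*, a main target of the pregnane X receptor, had none either. In *Cyp2c*, 14 of 15 genes had no peak, among them *Cyp2c29* and the 222.2-kb *Cyp2c39*, and the exception was a replicate 3 peak 9.42 kb outside *Cyp2c23* with a fold enrichment of 12.2. Of the 7 *Cyp3a* genes, *Cyp3a13* alone had a peak, in replicate 3 only, 6.83 kb outside the gene body (fold enrichment 9.12).

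Reads that align to several paralogs can be lost or split between copies, and how they were treated is not given in the sources used here, so the absence of peaks at near-identical genes is uncertain. Each promoter was therefore aligned with those of all other P450 genes. Of 37 drug-metabolism genes with a promoter sequence, 11 had at least 90% identity to another member, and the highest value was 99.3% for *Cyp2b9* and *Cyp2b13*. The median was 80.9%, against 54.2% for 36 other P450 genes, of which the highest was 61.9%. Of the 19 drug-metabolism genes with at least 80% identity to another member, 17 had no peak, 1 had a replicate 3 peak alone, and 1 had a peak of both libraries. Of the 18 below 80%, 15 had no peak, among them *Cyp2e1* (best identity 53.9%), while *Cyp3a13* (57.4%) had a replicate 3 peak alone, and *Cyp1a1* (53.4%) and *Cyp1a2* (53.7%) had peaks of both libraries. The part of paralog similarity in the missing peaks was not tested.

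*Cyp1a1* and *Cyp1a2*, the dioxin-inducible enzymes under the aryl hydrocarbon receptor, had no peak within 1 kb of their starts in the promoter table. One region, chr9:57687227-57688423, lay in the windows of both, and was enriched 23.6-fold over background in replicate 2 and 45.6-fold in replicate 3. Pairs of values below follow this order. It was 4.34 kb upstream of the *Cyp1a2* start, whose upstream sequence is printed above, and spanned the 5′ end of the *Cyp1a1* gene body, 0.064 kb from its summit. The promoter table places the *Cyp1a1* start 9.62 kb downstream of this summit, so the region lies at the start of the annotated gene body but not at the listed start. *Cyp1a2* had a further region of both libraries 8.88 kb beyond its gene body, chr9:57667455-57668433 (fold enrichment 16.3 and 27.7). The remaining region of both libraries in the *Cyp1a1* window lay at an end of the neighbouring gene *Edc3*, with 6.10 and 13.99.

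*Cyp2d22* was the most densely marked P450 gene. Its window held 11 peaks in replicate 2 and 15 in replicate 3, which formed 6 regions of both libraries, more than at any other member. Peaks covered 8.76% of its gene body in replicate 2 and 63.2% in replicate 3, at percentiles 96.1 and 99.5 of all protein-coding genes. The largest fold enrichments were 20.3 and 38.4, in a region 8.04 kb outside the gene body (chr15:82361402-82363030). Its neighbour *Cyp2d11* counted as marked in both libraries through 1 of these regions, at the near end of *Cyp2d22* (chr15:82379667-82381452, 12.3 and 27.2), and had no peak in its own gene body. *Cyp2d10* had 2 replicate 3 peaks with fold enrichments of 8.12 and 4.23. The other 5 *Cyp2d* genes had none. *Cyp2d22*, which has no listed start, was the single drug-metabolism gene counted around the gene start, and *Cyp1a1* would be counted too if either gene end were used for every gene.

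Of the 14 other genes of families 1 and 2, 6 (42.9%) had a peak of both libraries, beside 58.5% of all protein-coding genes. *Cyp2g1* and *Cyp2j9* had one in replicate 3 alone. *Cyp1b1*, which metabolizes estrogens and polycyclic hydrocarbons outside the liver parenchyma, had a region 0.751 kb upstream of its start (chr17:79715556-79716061), with fold enrichments of 8.17 and 12.7. *Cyp2j6*, of a subfamily that forms epoxides from arachidonic acid, was marked directly at its start with 11.5 and 34.5. Apart from *Cyp2j6* and *Cyp2j9*, the other 5 of the 7 *Cyp2j* genes had no peak. *Cyp2u1*, a fatty acid hydroxylase, had a region 0.916 kb inside a gene end, at 6.78 and 42.3. *Cyp2s1* was marked at the end away from its start, 14.1 kb downstream, at 6.78 and 21.2. For *Cyp2t4* and *Cyp2w1* no region of both libraries touched the gene body. The *Cyp2t4* window held 3 such regions, the strongest 1504 bp outside the gene (27.1 and 74.2) and another at the ends of *Egln2* and *Rab4b*. That of *Cyp2w1* held 2, a flanking one (8.11 and 15.3) and one at an end of *Cox19* (14.2 and 66.4).

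Family 4, the fatty acid omega-hydroxylases, depended most on the library. A peak of both libraries was found for 4 of its 17 genes, *Cyp4b1*, *Cyp4f13*, *Cyp4f16*, and *Cyp4f17*, and a replicate 3 peak alone for 9. The share with a peak of both libraries was 23.5%, beside 58.5% of all protein-coding genes. Counted in replicate 3, it was 76.5% beside 69.9%. *Cyp4b1* had 3 regions of both libraries, at the start whose sequence is shown (11.5 and 36.1), 4.21 kb downstream in the gene body (20.3 and 38.1), and 1.80 kb upstream (6.78 and 17.9). The start region of *Cyp4f13* reached 21.01 and 56.3. Weaker regions lay at the start of *Cyp4f16* (6.78 and 14.5) and at an end of *Cyp4f17* (5.42 and 9.74). None of the 5 *Cyp4a* genes, known targets of PPARα in hepatocytes, had a peak of both libraries, and 3 had one in replicate 3. *Cyp4v3* had a replicate 3 peak 0.570 kb upstream of its start with a fold enrichment of 4.56.

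Among the 7 sterol and bile acid genes, 4 (57.1%) had a peak of both libraries, near the 58.5% of all protein-coding genes. *Cyp51*, the lanosterol demethylase of cholesterol synthesis, was marked at its start (chr5:4104293-4104984) with fold enrichments of 12.9 and 29.8. *Cyp46a1*, a cholesterol hydroxylase best known from neurons, had the highest replicate 3 value of all P450 regions at its start (chr12:108333018-108334497), 109.7, with 23.04 in replicate 2. *Cyp39a1*, an oxysterol hydroxylase, shared its start region with an end of *Slc25a27* (15.3 and 44.8), so the gene it belongs to cannot be told apart.

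*Cyp7b1*, the oxysterol hydroxylase of the alternative bile acid pathway, held the highest replicate 2 value of all P450 regions. Its 171.9-kb gene body contained 4 regions of both libraries. The strongest, chr3:18213411-18214641, lay 30.1 kb from the nearest gene end with fold enrichments of 34.3 and 62.4, and chr3:18215104-18216070 beside it had 25.7 and 57.5. Another, chr3:18169501-18169973, lay 74.2 kb inside, with 18.98 and 36.1. At the gene end itself there was a replicate 3 peak alone (7.67). The bile acid synthesis genes *Cyp7a1*, *Cyp8b1*, and *Cyp27a1* had no peak of both libraries. *Cyp7a1*, which encodes the rate-limiting enzyme of the classical bile acid pathway in hepatocytes, had no peak in either library. *Cyp8b1* and *Cyp27a1* had 1 replicate 3 peak each, with fold enrichments of 6.51 and 5.02.

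All 6 vitamin D and retinoid genes had a peak in replicate 3, beside 69.9% of all protein-coding genes. A peak of both libraries was found for 4 of them (66.7%), near the 58.5% of all genes. *Cyp2r1*, the vitamin D hydroxylase of the first activation step, was marked at its CpG-rich start (chr7:114562336-114563347) with 18.9 and 58.4. *Cyp27b1*, which completes the activation, had a region 1.32 kb downstream of its start with 5.11 and 18.3, and the other regions in its window lay at ends of *Cdk4* (25.0 and 78.1) and of *Eef1akmt3* and *Mettl1* (12.9 and 17.3). *Cyp24a1*, which degrades vitamin D, had regions 1.01 kb (6.10 and 13.4) and 6.37 kb (17.6 and 34.2) outside one gene end. A replicate 3 peak 0.341 kb outside the same end lay within 1 kb of an end of the neighbouring gene *Pfdn4*. The gene to which the regions outside this end belong therefore cannot be told apart. Of the retinoic acid hydroxylases, *Cyp26b1* held 9 replicate 3 peaks, all inside its gene body. Of these, 2 were shared with replicate 2, at 3.38 kb (10.2 and 33.5) and 4.77 kb (8.54 and 24.1) downstream of the start, and no peak of either library lay within 1 kb of that start. *Cyp26a1* and *Cyp26c1*, which are neighbours, had the same 2 replicate 3 peaks in their windows, each with a fold enrichment of 8.79.

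**Figure D3:**
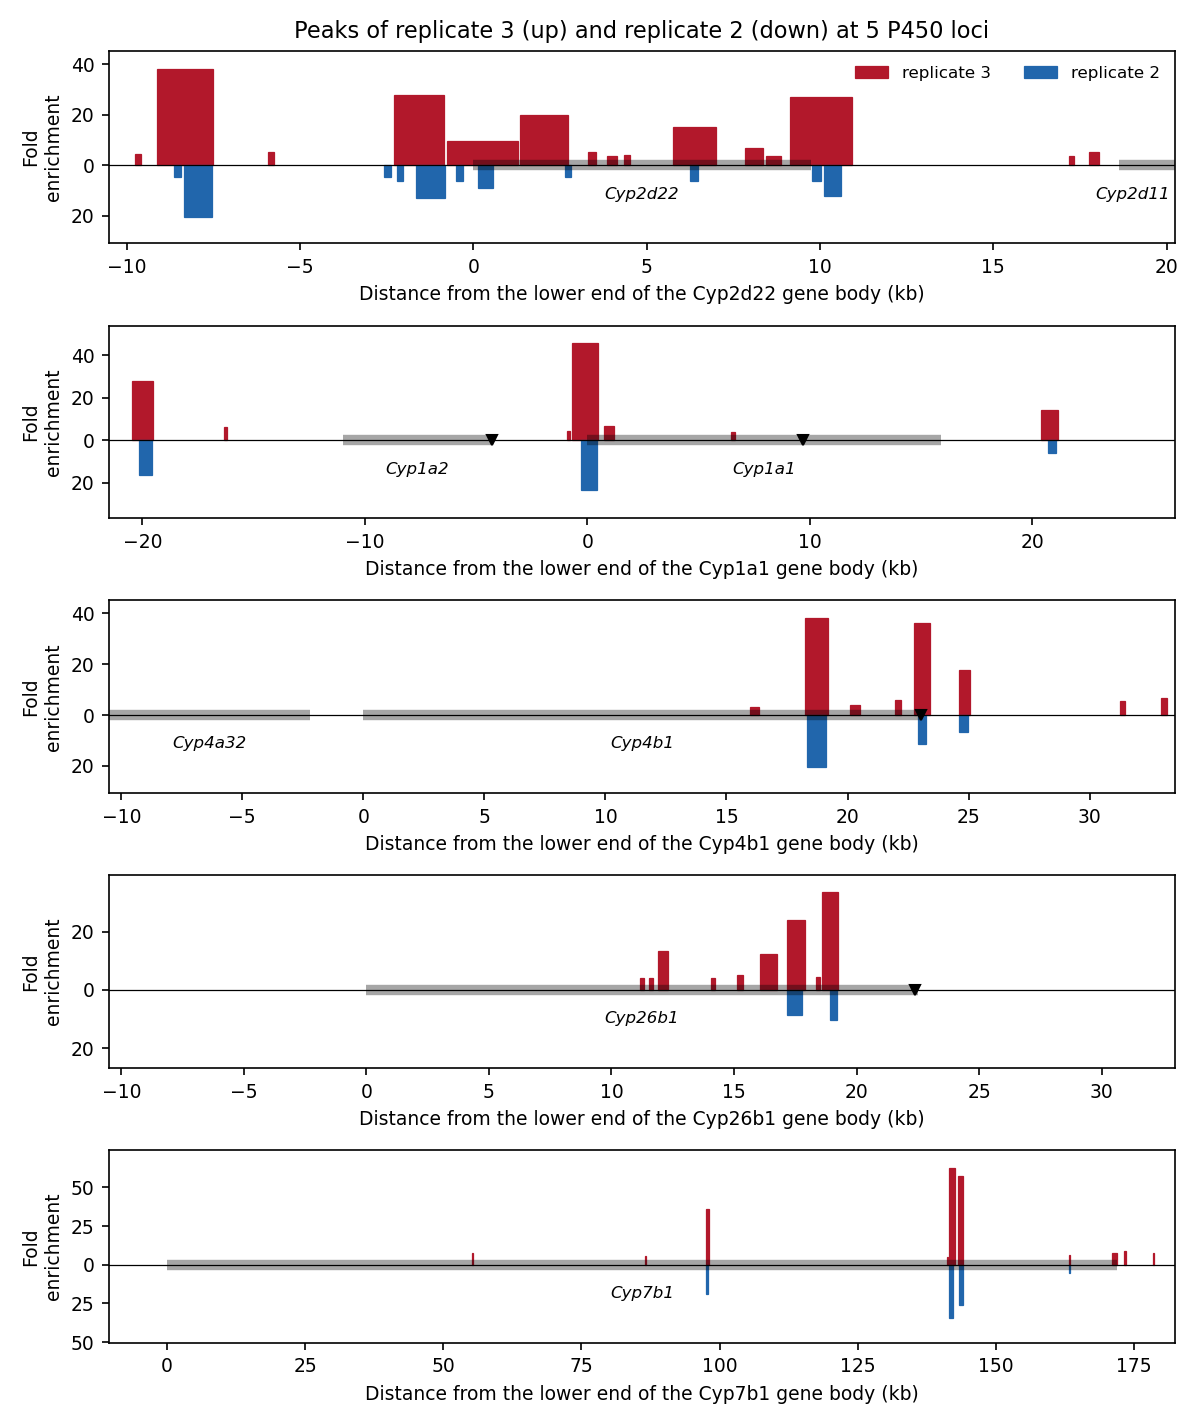
H3K27ac peaks of replicate 3 (upward) and replicate 2 (downward) at 5 P450 loci, with fold enrichment on the y axis, distance in kb from the lower-coordinate end of the named gene body on the x axis, grey bars for P450 gene bodies, and triangles for starts in the promoter table. *Cyp2d22* carries 6 regions of both libraries, *Cyp1a1* and *Cyp1a2* share one at 0 kb, and the *Cyp26b1* and *Cyp7b1* regions lie inside the gene bodies.

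The 6 steroid hormone genes had no peak of both libraries, beside 58.5% of all protein-coding genes with one. *Cyp11a1* and *Cyp17a1* had a replicate 3 peak each, with fold enrichments of 6.84 and 12.7, and *Cyp11b1*, *Cyp11b2*, *Cyp19a1*, and *Cyp21a1* had none. *Cyp20a1*, an enzyme of unassigned substrate, was marked at its CpG-rich start (chr1:60342811-60343763) with 13.6 and 39.8.

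Together the P450 windows contained 42 distinct regions of both libraries, 9 in drug-metabolism windows and 33 in the others. At the listed start of a P450 gene, or at either end of one with no listed start, lay 16, elsewhere in a P450 gene body 13, in the flanks 7, and at an end of a neighbouring gene that is not a P450 gene 6. Each region was counted in the first of these classes that applied, with a neighbour's end placed before the P450 gene body. The 16 therefore include the *Cyp39a1* region that also lay at an end of *Slc25a27*. The 13 include the regions at the gene ends of *Cyp1a1* and *Cyp2s1* described above. Leaving out the regions at ends of these neighbouring genes removed no P450 gene from the 23. Regions inside a neighbour's body, or at an end of another P450 gene, were not left out. Which gene each region belongs to was not tested. The median fold enrichment was 12.2 in replicate 2 and 31.7 in replicate 3, against 10.48 and 27.03 over all 24199 regions of both libraries. Replicate 3 had the higher value in 42 of 42 P450 regions, and its median was also the higher over all regions of both libraries. How many of all regions had the higher value in replicate 3 was not counted.

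**Figure D4:**
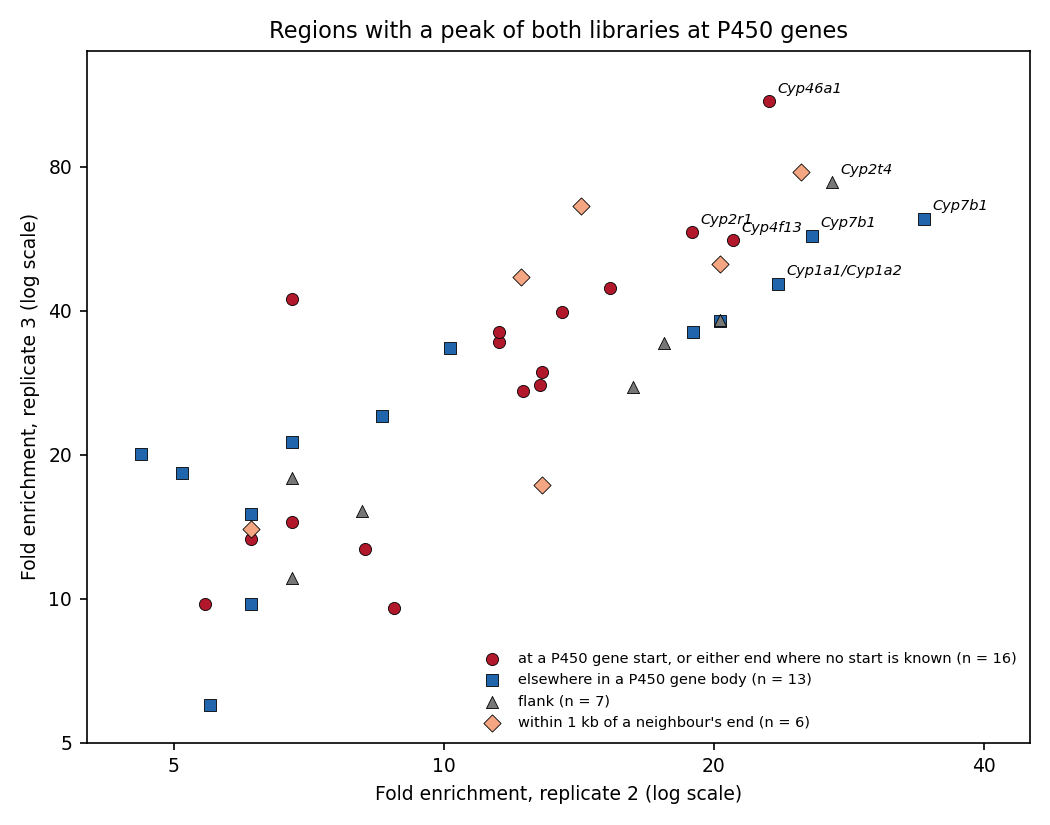
Fold enrichment in replicate 2 (x axis, log scale) and replicate 3 (y axis, log scale) of the 42 P450 regions with a peak of both libraries, 1 point per region, with colour and shape giving its position. *Cyp46a1* has the highest replicate 3 value (109.7) and a *Cyp7b1* region the highest replicate 2 value (34.3).

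Replicate agreement at P450 genes was close to that of the whole lists. Of 117 replicate 3 peaks in P450 windows, 42 overlapped a replicate 2 peak (35.9%, Wilson 95% interval 27.8% to 44.9%, which covers counting error only), and 37.7% of all replicate 3 peaks did. The 75 without a partner had a median fold enrichment of 5.81, with a range of 2.57 to 19.9, and the median of all such peaks was 6.20. In the other direction, 1 of 48 replicate 2 peaks in these windows lacked a partner, in the *Cyp2d22* flank. The same share over all replicate 2 peaks was not computed. At the 20 P450 genes marked in replicate 3 alone, the strongest peak of each gene had a fold enrichment of 2.94 to 15.6 with a median of 7.001. For 4 of them, *Cyp4f14*, *Cyp17a1*, *Cyp2c23*, and *Cyp3a13*, it was above the median of all replicate 3 peaks.

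Genes of partners and regulators of P450 enzymes were counted in the same windows. The list also held *Tbxas1* and *Ptgis*, which are themselves P450 genes with symbols outside the rule. Of the 27 listed genes, 25 (92.6%) had a peak of both libraries in the window, beside the 58.5% of all genes. At the start 13 (48.1%) had one, near the 44.9% of all genes. Whether these peaks lay at an end of a neighbouring gene was not examined. Window size grows with gene length, and the lengths of the listed genes were not compared with those of all genes. *Por*, the electron donor of the microsomal enzymes, had fold enrichments of 45.4 and 104.9 at its start, and *Cyb5a*, the cytochrome b5 gene, had 56.3 and 124.8. *Fdxr*, which feeds electrons to the mitochondrial enzymes, had 30.5 and 86.3, while its partner *Fdx1* was marked in replicate 3 alone. Among regulators, *Ahr* (16.9 and 53.4), *Arnt* (19.5 and 53.3), *Cebpa* (22.6 and 44.7), and *Srebf2* (29.1 and 99.6) were marked at the start in both libraries, as were *Cebpb*, *Rxra*, *Rxrb*, *Scap*, *Pgrmc1*, and *Cyb5b*. *Nr1i2*, *Nr1i3*, *Hnf4a*, *Nr1h4*, and *Nr0b2*, nuclear receptor genes prominent in hepatocytes, had a peak of both libraries in the window but no peak at the start, and the same held for *Nr5a2*, *Ahrr*, *Tbxas1*, and *Ptgis*. *Cyb5r3*, *Nr1h3*, and *Ppara* had a peak of both libraries in the window and a replicate 3 peak alone at the start, and *Foxa2* had no peak.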

How the data were processed

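H3K27ac ChIP-Seq peaks of 2 LSEC libraries, replicates 2 and 3, were analysed. The 2 input libraries were not analysed here on their own, and whether they entered the peak calls is not given in the sources used here. The submitters' processing notes name cutadapt 0.4.4, BWA 0.7.17, Picard 1.67, MACS2 2.0.10, bedtools 2.27.1, and the build mm10, without roles or settings. The sample records describe sonicated chromatin and a ligation-based library kit, whereas the methods of the study describe tagmentation.

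The authors deposited 1 peak list per library. Its fold enrichment is a ratio of signal to background, the next deposited columns are the −log10 of the p-value and of the q-value, and the deposited score is an integer display value that was not used. The smallest −log10 q in the deposited lists was 2.04 in replicate 2 and 2.01 in replicate 3. The lists hold no read counts, so depth is unknown and a peak missing from the shorter list may be a matter of depth.

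An overlap of 1 bp or more made peaks shared, and such peaks were merged into regions. Gene bodies came from the RefSeq table of GRCm38.p6, starts and promoters from the RefSeq promoter table. Positions are those of mm10, counted from 1. Distances were measured from the replicate 3 summit. Scripts used Python 3.11.15, pandas 2.3.3, numpy 2.4.6, and Biopython 1.88 (global alignment of promoters). The code that finds overlaps was tested on simulated peaks. The P450 genes, groups, gene lists, motifs, and promoters shown were chosen with earlier results of these data known.

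Genes named are those with a peak of both libraries, the drug-metabolism genes with a peak in either library, a list of P450 genes of known function, the partner and regulator list (a further gene planned for it is not reported here), the neighbours at shared regions, and the marker lists. *Cyp2b9*, *Cyp2b13*, *Cyp2c39*, *Cyp2g1*, *Cyp2j9*, *Cyp26c1*, *Pfdn4*, and the steroid hormone genes were named after their values were seen. Alternatives were stricter peaks, a reciprocal overlap, other windows, other sets of genes, and 1 library at a time.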

Additional observations from a re-analysis of the deposited data

How the results depend on the processing

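Of 46 alternatives to 5 results, 34 stayed within 1.5 times the main count, or within the interval of the share, and 12 moved. The number of P450 genes with a peak of both libraries went from 23 to 43 with windows of 50 kb, and a single library gave 23 to 43. That of drug-metabolism genes went from 4 to 2 in the gene body alone and with 2.5 kb on each side, and to 11 when all 57 genes of families 1 to 3 were counted, with 4 to 7 in a single library. Under that wider grouping the other genes, then 36, went from 19 to 12. With 50 kb and the main grouping their count was 38, and a single library gave 19 to 36. At a gene start or end the count fell from 14 to 7 with a reciprocal overlap of 50%, and a single library gave 14 to 21. In P450 windows, the part of replicate 3 peaks that had a partner in replicate 2 went from 35.9% to 17.1% with the reciprocal overlap, and to 77.1% when the longer list was shortened to the length of the shorter by strength. The share over all replicate 3 peaks was not computed under either setting, so the likeness to the whole lists covers the main setting only. Wider windows, other gene sets, and dropping the need for a second library change these counts by construction. For all protein-coding genes, the share was counted again only for the gene body alone and for single libraries in the main window. Whether P450 genes stayed below all genes under the other alternatives was therefore not examined. A q-value of 1e-05 or less left 23 P450 genes and 4 drug-metabolism genes. Including symbols that end in a letter, chosen after seeing the data, also gave 23. No paired analysis was possible because there is 1 condition and the inputs that carry the same numbers were not analysed here. Unknown depth limits every absence, above all in replicate 2.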

Other observations

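Genes with P450 symbols of another form lay outside the rule. *Cyp2ab1* had 1 peak in each library, which overlapped. *Cyp3a41a*, *Cyp3a41b*, *Cyp4a12a*, and *Cyp4a12b* had no peak in either library, and *Cyp4a30b* had 1 peak in replicate 3.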
